A study of Mus musculus with 10 samples.

Results

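This section describes 9 noncoding host transcripts of microRNAs, Mir22hg, Dleu2, Mir100hg, Mir17hg, Lncppara, Mir99ahg, Mir155hg, H19 and Meg3, in mouse OP9 cells labelled as Drosha knockout or Dicer1 knockout. The members were chosen by gene symbol, as a list of named genes, among 55189 named features of the Drosha table and 32931 of the Dicer1 table. Earlier results of these data were known when they were chosen. Of the 9 members, 7 carried their symbol in both tables. Mir17hg and Lncppara carried none; these 2 were identified by Ensembl ID in the Drosha table and were not analysed in the Dicer1 table, which holds no IDs.

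A microRNA begins as a hairpin inside a longer transcript. In the nucleus the Microprocessor, formed by the nuclease Drosha and the RNA-binding protein Dgcr8, cuts the hairpin out of its host; in the cytoplasm the nuclease Dicer1 trims the freed hairpin to the mature microRNA. A noncoding host has no protein product, and for several of these genes the embedded microRNA is the best studied product. Drosha therefore acts on the host transcript itself, and Dicer1 acts after the host has been cut.

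OP9 is a bone marrow stromal line of mouse that can form fat cells. All cells, knockout and empty vector alike, were kept for 10 days from confluence with rosiglitazone at 1 µM, a drug that activates PPARγ and drives fat cell formation. The 10 libraries, made from bead-captured mRNA, comprised Drosha knockout with 3 libraries and empty vector with 3 libraries in batch 2, and Dicer1 knockout with 2 libraries and empty vector with 2 libraries in batch 1. The labels call both empty vector groups wild type, and the sources used here do not give how the knockouts were made or whether they were clones. The columns of all 3 Drosha knockout libraries carry the tag g1, whose meaning the labels do not give. Nor is it given that replicates came from separate cultures, and the p-values then reflect only how far these libraries scatter, possibly for technical reasons.

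The values are TPM, a level per transcript length scaled to a fixed total per library, which keep no sequencing depth, so no counting interval is given. Between 11893 and 12917 named features reached 1 TPM in a library. Drosha stood at 14.8, 13.7 and 15.6 TPM in Drosha knockout libraries, against 38.9, 39.6 and 38.6 TPM in empty vector libraries. Dicer1 stood at 19.3 and 14.9 TPM in Dicer1 knockout libraries, against 23.8 and 17.3 TPM in empty vector libraries. The Dicer1 groups overlapped and the difference did not pass the test (log2 fold change -0.25, limma adjusted p = 0.407), so the level of the targeted RNA does not check the Dicer1 label. The median absolute log2 difference between replicates was 0.122 in Dicer1 knockout and 0.225 in empty vector of batch 1, and 0.0812 to 0.106 for the pairs within the groups of batch 2. Of 8 adipocyte markers, 6 fell and 1, Fabp4, rose in Drosha knockout, and 7 fell in Dicer1 knockout. In bulk RNA fewer cells of a type and less RNA per cell cannot be told apart. The 7 myeloid markers summed to between 15.7 and 23.3 TPM in knockout libraries and between 12.5 and 22.5 TPM in empty vector libraries of both tables, mostly from Lyz2 or Cd68, and Tyrobp was at 0. The 5 lymphoid markers and the 5 endothelial markers summed to at most 1.15 and 2.85 TPM in any library.

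The microRNAs that these hosts carry are shown first, because their shared letters tie the hosts to each other. Mature sequences and hairpins come from RefSeq on GRCm38.p6. Of 20 microRNA genes placed in the 9 hosts, 20 had a mature sequence and 18 a hairpin sequence. The seed, bases 2 to 8, by which a microRNA recognises its targets, is in capitals in the mature sequences below.
miR-22-3p (host Mir22hg): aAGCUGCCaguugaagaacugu
miR-15a-5p (host Dleu2): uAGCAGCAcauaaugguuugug
miR-16-5p (host Dleu2): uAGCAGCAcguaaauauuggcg
let-7b-5p (host Lncppara): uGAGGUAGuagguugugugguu
let-7c-5p (hosts Lncppara and Mir99ahg): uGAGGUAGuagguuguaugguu
miR-100-5p (host Mir100hg): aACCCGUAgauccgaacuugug
miR-99a-5p (host Mir99ahg): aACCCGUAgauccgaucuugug
miR-125b-5p (hosts Mir100hg and Mir99ahg): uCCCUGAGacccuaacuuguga
miR-17-5p (host Mir17hg): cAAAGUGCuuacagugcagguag
miR-20a-5p (host Mir17hg): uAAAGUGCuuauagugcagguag
miR-675-3p (host H19): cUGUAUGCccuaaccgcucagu

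Of 30 distinct seeds among the 38 mature sequences, 3 occurred in more than one host. The seed ACCCGUA joined miR-100 and miR-99a, and CCCUGAG joined the miR-125b copies; these hosts, Mir100hg and Mir99ahg, thus carry related microRNAs. The let-7 seed GAGGUAG joined Lncppara and Mir99ahg among the listed mature sequences. For Mirlet7a-2 in Mir100hg only the 3p arm was listed, and the Mirlet7a-2 hairpin also holds the letters GAGGUAG. Dleu2 carries the miR-15a and miR-16 pair with 1 seed, AGCAGCA, and Mir17hg carries miR-17 and miR-20a with AAAGUGC and miR-19a and miR-19b with GUGCAAA.

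The hairpins of 4 hosts that rose in Drosha knockout are shown as listed in RefSeq, with the mature arms in capitals and all other bases in lower case.
Mir22, chr11:75463716-75463810, plus strand: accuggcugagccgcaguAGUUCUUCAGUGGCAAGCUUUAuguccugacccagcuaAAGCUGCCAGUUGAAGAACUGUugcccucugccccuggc
Mir16-1, chr14:61631880-61631972, minus strand: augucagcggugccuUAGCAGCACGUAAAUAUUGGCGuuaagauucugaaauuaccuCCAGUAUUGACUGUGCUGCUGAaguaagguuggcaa
Mirlet7b, chr15:85707319-85707403, plus strand: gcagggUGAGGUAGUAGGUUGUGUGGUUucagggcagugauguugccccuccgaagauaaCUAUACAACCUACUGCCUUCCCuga
Mir675, chr7:142577064-142577147, minus strand: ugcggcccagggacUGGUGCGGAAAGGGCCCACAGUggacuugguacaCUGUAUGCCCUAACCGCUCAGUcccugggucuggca

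The letters UGU between the arms, which are known from human cells to help the Microprocessor, were present in 7 of 16 member hairpins for which both arms and the hairpin were listed (43.8%), against 203 of 644 mouse hairpins in the same table (31.5%). Mir22 and Mirlet7b held them, and Mir16-1 and Mir675 did not. A match is a description of the letters only; it was sought on the transcript strand, since RNA has one.

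The hosts differ in where the hairpin sits, which the choice of members did not use. Positions come from the GENCODE M21 annotation of GRCm38, matched by Ensembl ID; the build behind the deposited values is not given in the sources used here. All 20 hairpins lay inside their hosts. In every annotated transcript of the host, 8 hairpins lay in an exon: Mir22 in Mir22hg (chromosome 11, 75461539 to 75466676), Mir155 in Mir155hg (chromosome 16, 84703167 to 84715245) and the 6 hairpins of Mir17hg (chromosome 14, 115042879 to 115046727). In some transcripts only, 4 hairpins were exonic: Mirlet7b and Mirlet7c-2 in Lncppara (chromosome 15, 85653616 to 85707524, 1 of 2 transcripts each), Mir675 in H19 (chromosome 7, 142575529 to 142578143, 3 of 7) and Mir770 in Meg3 (chromosome 12, 109541001 to 109571726, 1 of 11). A further 7 hairpins were intronic: all 3 in Mir100hg (chromosome 9, 41327077 to 41716994), all 3 in Mir99ahg (chromosome 16, 77236317 to 77773427) and Mir15a in Dleu2 (chromosome 14, 61602839 to 61682373). Mir16-1, also in Dleu2, touched an exon of 1 of 15 transcripts.

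**Figure D1:**
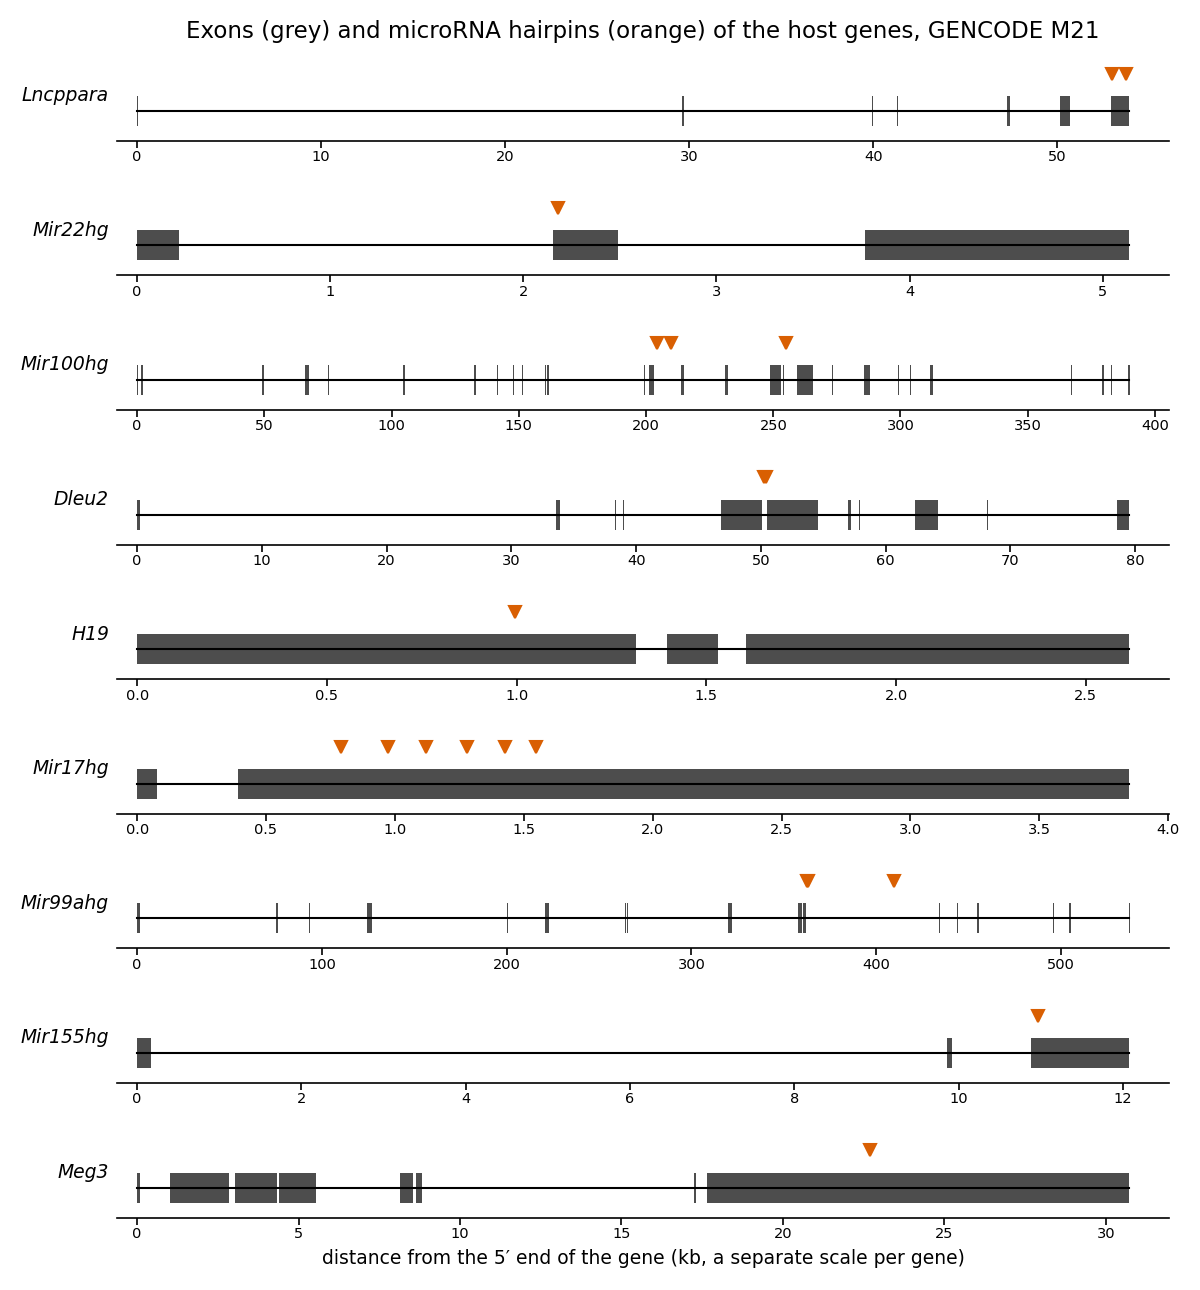
Exon blocks (grey boxes) and microRNA hairpins (orange triangles) along each host gene, drawn from its 5′ end in kb with a separate scale per gene. Mir17hg carries 6 hairpins in an exon, whereas the 3 hairpins of Mir100hg and the 3 of Mir99ahg lie in introns.

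The first comparison asks how these hosts differ between the libraries labelled Drosha knockout and their empty vector. Of the 9 hosts, 7 rose in Drosha knockout, 0 fell and 2 were too low to be tested. Among all 12739 features tested, 42.8% were called, 35.3% as higher and 7.42% as lower (limma, Benjamini-Hochberg adjusted p under 0.05). The 9 hosts together summed to between 406.3 and 458.1 TPM in Drosha knockout libraries, against 95.5 to 102.2 TPM in empty vector libraries. The filter asked for 1 TPM in at least 3 of the 6 libraries, and Mir17hg passed it only through the knockout libraries, so its test is not independent of that filter. In the values below, changes are log2 fold changes of TPM + 1 with their standard error.

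**Figure D2:**
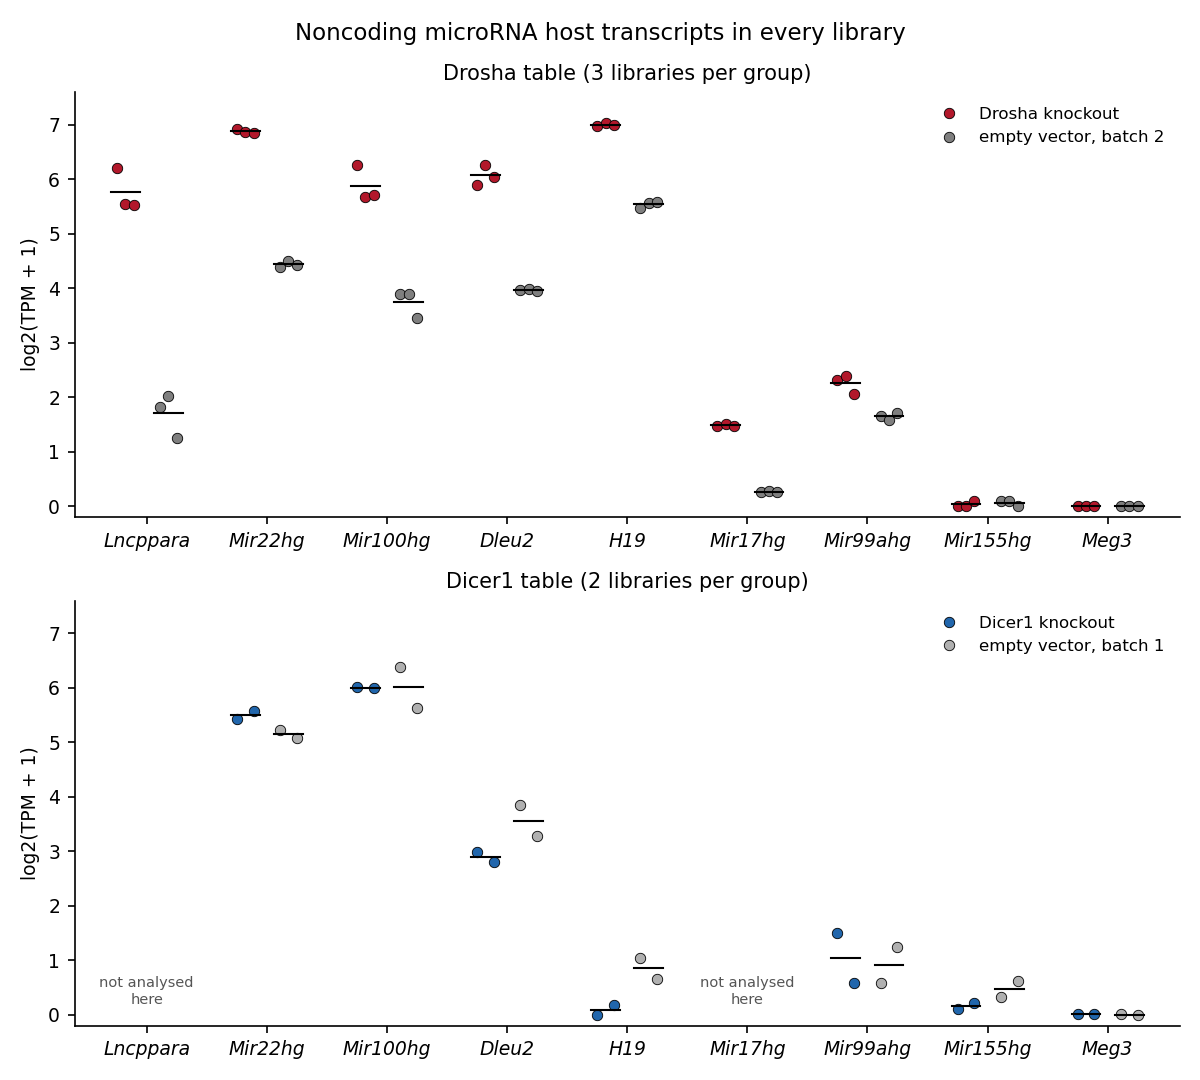
Level of each host as log2(TPM + 1) in every library (points), with the mean of the log values per group (bars); the upper panel shows Drosha knockout beside its empty vector and the lower panel Dicer1 knockout beside its own. Lncppara, Mir22hg, Mir100hg, Dleu2, H19, Mir17hg and Mir99ahg lie above empty vector in all Drosha knockout libraries, and Mir155hg and Meg3 lie near 0.

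Lncppara, the host of let-7b and let-7c-2, had the largest change. It stood at 73.2, 45.8 and 44.8 TPM in Drosha knockout libraries, against 2.55, 3.06 and 1.40 TPM in empty vector libraries. The groups were far apart and the first knockout library was the highest. The mean was 54.6 ± 16.1 TPM in Drosha knockout and 2.34 ± 0.851 TPM in empty vector (SD, n = 3 each), a 23.4-fold ratio of means (4.06 ± 0.24, adjusted p = 3.59e-05). It ranked 11 of the 12739 features by log2 fold change.

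Mir22hg, the host of miR-22, stood at 120.6, 115.0 and 113.8 TPM in Drosha knockout libraries, against 19.9, 21.8 and 20.5 TPM in empty vector libraries. No libraries overlapped. The ratio of means was 5.62 (2.44 ± 0.05, adjusted p = 4.81e-07). In the GENCODE annotation 206 bases of its exons, 10.7% of them, are shared on the same strand with the coding gene Tlcd2. The index and annotation behind the deposited values are not given, so the share of such reads in each gene is unknown. Tlcd2 itself rose to 6.45 TPM in Drosha knockout, against 2.41 TPM in empty vector (1.14, adjusted p = 7.16e-04).

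Dleu2, the host of miR-15a and miR-16-1 and known in human as part of a region deleted in leukaemia, stood at 58.4, 75.9 and 65.2 TPM in Drosha knockout libraries, against 14.7, 14.9 and 14.5 TPM in empty vector libraries. The empty vector libraries nearly coincided, and the knockout libraries spread more. The mean was 66.5 ± 8.82 TPM in Drosha knockout and 14.7 ± 0.227 TPM in empty vector, a ratio of 4.52 (2.10 ± 0.09, adjusted p = 1.17e-05).

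Mir100hg, the host of miR-100, let-7a-2 and miR-125b-1, stood at 75.6, 50.2 and 51.5 TPM in Drosha knockout libraries, against 13.8, 13.9 and 9.90 TPM in empty vector libraries. The first knockout library was the highest, as for Lncppara, and the groups did not overlap. The ratio of means was 4.71 (2.14 ± 0.18, adjusted p = 1.46e-04). Mir99ahg, the host of miR-99a, let-7c-1 and miR-125b-2, stood at 3.99, 4.27 and 3.19 TPM in Drosha knockout libraries, against 2.16, 1.99 and 2.25 TPM in empty vector libraries. It also rose without overlap, but with the smallest change of the 7, a ratio of 1.79 (0.61 ± 0.12, adjusted p = 0.00592). The hosts of these related microRNAs stood at different levels, with Mir100hg averaging 59.1 TPM and Mir99ahg 3.82 TPM in Drosha knockout, and 12.6 and 2.14 TPM in empty vector.

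H19, the maternally expressed imprinted RNA that carries miR-675 and had the highest level of the hosts in both groups of this table, stood at 124.5, 129.9 and 125.9 TPM in Drosha knockout libraries, against 43.6, 46.3 and 46.7 TPM in empty vector libraries. The replicates lay close together and the groups far apart. The ratio of means was 2.78 (1.46 ± 0.04, adjusted p = 1.86e-06). Its coding neighbour Igf2, a growth factor gene that is imprinted in the opposite way, fell to 47.0 ± 0.419 TPM in Drosha knockout, against 67.6 ± 7.30 TPM in empty vector (-0.51 ± 0.07, adjusted p = 0.00119).

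Mir17hg, the host of the miR-17-92 cluster, was low. It stood at 1.78, 1.86 and 1.76 TPM in Drosha knockout libraries, against 0.193, 0.220 and 0.193 TPM in empty vector libraries. The groups did not overlap, and the ratio of means was 8.92 (1.22 ± 0.15, adjusted p = 7.21e-04). Mir17hg passed the filter only through the knockout libraries, so this p-value is not independent of the filter. The added pseudocount understates a change at this level: with a pseudocount of 0.1 the log2 fold change was 2.65.

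Mir155hg, the host of miR-155, a microRNA best known from activated immune cells, was listed at 0, 0 and 0.0733 TPM in Drosha knockout libraries, against 0.0661, 0.0686 and 0 TPM in empty vector libraries. Meg3, the imprinted RNA that carries miR-770, was listed at 0.00461 TPM in 1 Drosha knockout library and at 0 in the other 2, against 0 in each of the 3 empty vector libraries. Neither passed the filter, and without it neither was called (Mir155hg -0.03, adjusted p = 0.722; Meg3 0.00, adjusted p = 0.968).

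The median log2 fold change over all features was 0.13 in Drosha knockout and 0.15 in Dicer1 knockout, and median-ratio scaling moved both close to 0 (-0.00185 and -0.0144). With it, calls in Drosha knockout became 2309 higher and 2077 lower, beside 4502 and 945 without scaling, and in Dicer1 knockout 1471 higher and 1710 lower, beside 2627 and 1175. Relative to that median the changes in Drosha knockout lay between 0.48 for Mir99ahg and 3.93 for Lncppara, and the 7 hosts kept their call with the scaling.

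The second comparison sets the libraries labelled as knockout for Dicer1, the nuclease of the later cut, against their empty vector. None of the 4 hosts that could be tested was called in either direction, while 31.1% of 12239 features were called (21.5% higher, 9.6% lower). Limma gave 2 of these hosts an unadjusted p under 0.05, Mir22hg (0.0299) and Dleu2 (0.0370). It also gave 5456 of all 12239 features an unadjusted p under 0.05, so 2 of 4 does not set these hosts apart. A p that misses the threshold does not show that levels were equal, and the intervals below are wide.

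Mir22hg stood at 41.9 and 46.7 TPM in Dicer1 knockout libraries, against 36.5 and 32.9 TPM in empty vector libraries. Both knockout libraries were above both empty vector libraries by a small margin (0.34 ± 0.12, 95% interval 0.05 to 0.64, adjusted p = 0.0777). Dleu2 stood at 6.95 and 5.98 TPM in Dicer1 knockout libraries, against 13.3 and 8.71 TPM in empty vector libraries. Both knockout libraries were below both empty vector libraries, which differed between themselves (-0.66 ± 0.24, interval -1.27 to -0.06, adjusted p = 0.0900). With median-ratio scaling Dleu2 was called lower (-0.83, adjusted p = 0.0476), and its adjusted p ranged from 0.0339 to 0.367 over its alternatives. The lowest came without empty vector replicate 2 (-0.94), a fit that assumes the 1 empty vector library left to vary like the knockout libraries.

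Mir100hg stood at 63.5 and 62.7 TPM in Dicer1 knockout libraries, against 82.7 and 48.4 TPM in empty vector libraries. The empty vector libraries lay on either side of the knockout libraries (-0.00 ± 0.25, interval -0.62 to 0.61, adjusted p = 0.991). Its direction followed which of them was kept: 0.38 without empty vector replicate 1 (adjusted p = 0.0364) and -0.38 without replicate 2 (adjusted p = 0.0324), within a range of 0.0324 to 0.997. Both p-values rest on the spread of the 2 knockout libraries, which nearly coincided, since 1 empty vector library was left. Mir99ahg stood at 1.83 and 0.491 TPM in Dicer1 knockout libraries, against 0.506 and 1.38 TPM in empty vector libraries, and the groups overlapped (0.12 ± 0.44, adjusted p = 0.854).

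The other 3 hosts with a row in the Dicer1 table were below the filter. H19 stood at 0 and 0.127 TPM in Dicer1 knockout libraries, against 1.05 and 0.585 TPM in empty vector libraries, so the knockout libraries were lower at a low level (without the filter -0.77, adjusted p = 0.0776). Mir155hg stood at 0.0759 and 0.168 TPM in Dicer1 knockout libraries, against 0.247 and 0.545 TPM in empty vector libraries, without overlap (without the filter adjusted p = 0.260). Meg3 did not exceed 0.0116 TPM in any library.

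**Figure D3:**
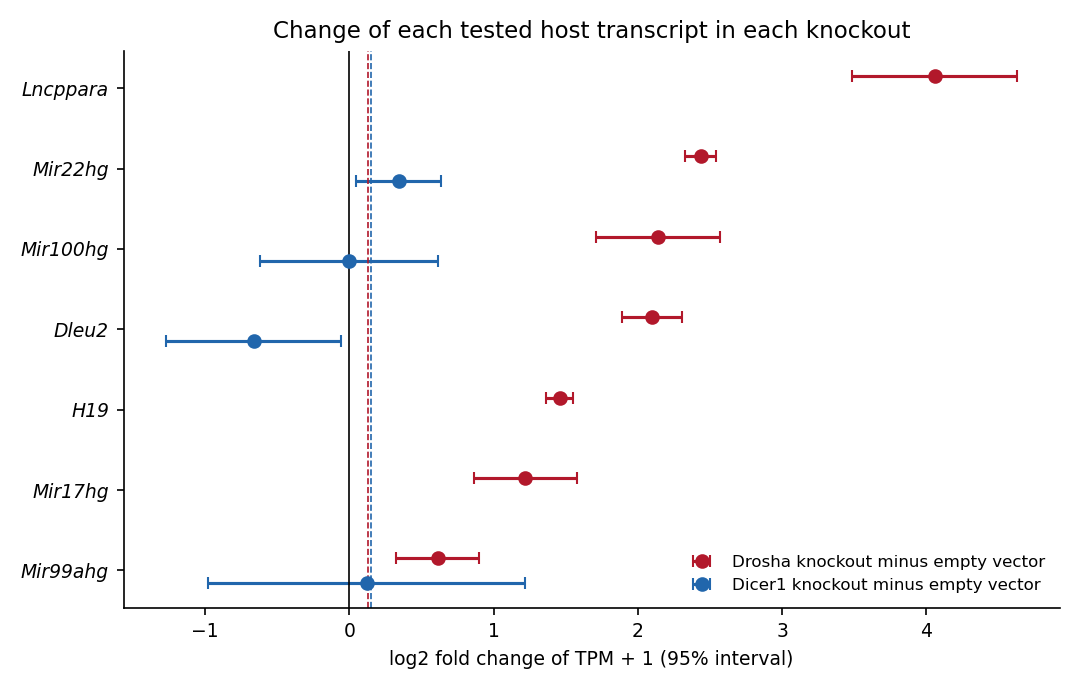
Log2 fold change of TPM + 1 with its 95% interval for each tested host, Drosha knockout minus its empty vector (red) and Dicer1 knockout minus its empty vector (blue); dashed lines mark the median of all features in each comparison. All 7 intervals for Drosha knockout lie above 0, though Mir17hg passed the filter only through the knockout libraries. Of the 4 intervals for Dicer1 knockout those of Mir100hg and Mir99ahg span 0, with that of Mir99ahg also spanning its whole interval for Drosha knockout.

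The difference between the knockouts was tested directly for the 4 hosts tested in both tables, with the Dicer1 knockout change subtracted from the Drosha knockout change, in 1 fit of 11146 features. For 3 of the 4 the change was larger in Drosha knockout; of all features 35.5% were called, 17.4% as higher in this sense and 18.1% as lower. The difference was 2.09 ± 0.10 for Mir22hg (95% interval 1.86 to 2.32, adjusted p = 2.77e-06). It was 2.76 ± 0.22 for Dleu2 (2.26 to 3.26, adjusted p = 2.58e-05), which moved up in every Drosha knockout library. It was 2.14 ± 0.34 for Mir100hg (1.39 to 2.89, adjusted p = 0.00104). For Mir99ahg it was 0.49 ± 0.39 (-0.39 to 1.37, adjusted p = 0.362) and was not called. The knockouts were profiled in different batches, so a difference between them and a difference between batches in how cells respond cannot be told apart.

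Levels of the hosts in the empty vector libraries themselves differed between the tables, which hold different batches and were not tested against each other. H19 averaged 45.5 TPM in empty vector of batch 2 and 0.820 TPM in empty vector of batch 1. Mir100hg averaged 12.6 TPM in batch 2 and stood at 82.7 and 48.4 TPM in the libraries of batch 1. Dleu2 averaged 14.7 TPM in batch 2 and stood at 13.3 and 8.71 TPM in the libraries of batch 1. Mir22hg averaged 20.7 TPM in batch 2 and 34.7 TPM in batch 1.

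Rows of the microRNA genes themselves held little. Of the 20 microRNA genes in the hosts, 18 were at 0 in every library of the Drosha table and 19 in every library of the Dicer1 table. Mir15a was listed at 1.26, 0 and 4.87 TPM in Drosha knockout libraries, against 0 in all 3 empty vector libraries, and Mir16-1 at 1.23 TPM in 1 Drosha knockout library, against 0 in all empty vector libraries. Both lie in Dleu2. Mir99a was listed at 8.85 TPM in 1 Dicer1 knockout library and at 0 in the other and in the empty vector libraries. Such rows stand for short annotated hairpins in bead-captured mRNA and do not measure mature microRNAs. Which RNA gave these values, a freed hairpin or an uncut host, was not tested.

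The nearest coding genes on either side of the hosts were compared, at RefSeq distances from 1.33 kb (Tlcd2 from Mir22hg) to 3361 kb (Slitrk5 from Mir17hg). Of 17 such neighbours, 8 could be tested in Drosha knockout, where 2 rose, 2 fell and 4 were not called (median 0.13, that of all features also 0.13). This median covers only some of the hosts that rose. None of the 8 lies next to Lncppara, Mir100hg or Mir17hg, and Mrpl39 and Dio3 lie next to the untested Mir155hg and Meg3. The 2 neighbours that rose were Tlcd2, beside Mir22hg, and Usp25, a ubiquitin protease gene 213 kb from Mir99ahg (0.82, adjusted p = 7.57e-05). In GENCODE, Tlcd2 shares exon bases with Mir22hg on the same strand, so its level may hold reads of that host. The 2 that fell were Igf2 and Mrpl23, a mitochondrial ribosomal protein gene on the other side of H19 (-0.36, adjusted p = 0.0166). Spryd7 beside Dleu2 stood at 9.34 TPM in Drosha knockout and 8.53 TPM in empty vector (0.12, adjusted p = 0.235). Ppara, the lipid regulator gene beside Lncppara, stood at 0.0338 TPM in Drosha knockout and 0.0292 TPM in empty vector, too low to be tested. In Dicer1 knockout 8 neighbours could be tested, of which 2 rose, Usp25 (0.98, adjusted p = 0.00658) and Wdr81 beside Mir22hg (0.87, adjusted p = 0.0317, and 0.0874 with median-ratio scaling), and 1 fell, Mrpl23 (-1.37, adjusted p = 0.0293).

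To place the 9 hosts among their kind, every annotated gene that spans a hairpin on its own strand was taken, a list made after the values were seen. Of 16 other tested noncoding genes of this kind, 8 rose and 1 fell in Drosha knockout (median 0.74). Of 436 coding hosts 43.1% rose (median 0.16), beside 35.3% of all features. These shares are without scaling, and median-ratio scaling took the features called higher from 4502 to 2309. Among these noncoding genes, E130102H24Rik, which spans Mir101a, rose to 36.0 ± 2.51 TPM in Drosha knockout, against 1.35 ± 0.278 TPM in empty vector (3.98 ± 0.10, adjusted p = 1.65e-06). AL805899.1, which spans Mir31, rose to 48.0 ± 0.742 TPM in Drosha knockout, against 3.03 ± 0.769 TPM in empty vector (3.62 ± 0.12, adjusted p = 5.17e-06). In Dicer1 knockout 1 of 9 other noncoding hosts rose and 0 fell (median 0.18), and E130102H24Rik stood at 3.48 TPM in Dicer1 knockout and 2.23 TPM in empty vector (0.47 ± 0.23, adjusted p = 0.169). Split by the position of the hairpin, the 3 members with no hairpin wholly in an exon had a median change of 2.10 in Drosha knockout. For the 4 with an exonic hairpin the median was 1.95. These 4 include Mir17hg, which passed the filter only through the knockout libraries and whose change the pseudocount understates. Whether the position of the hairpin matters was not tested.

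**Figure D4:**
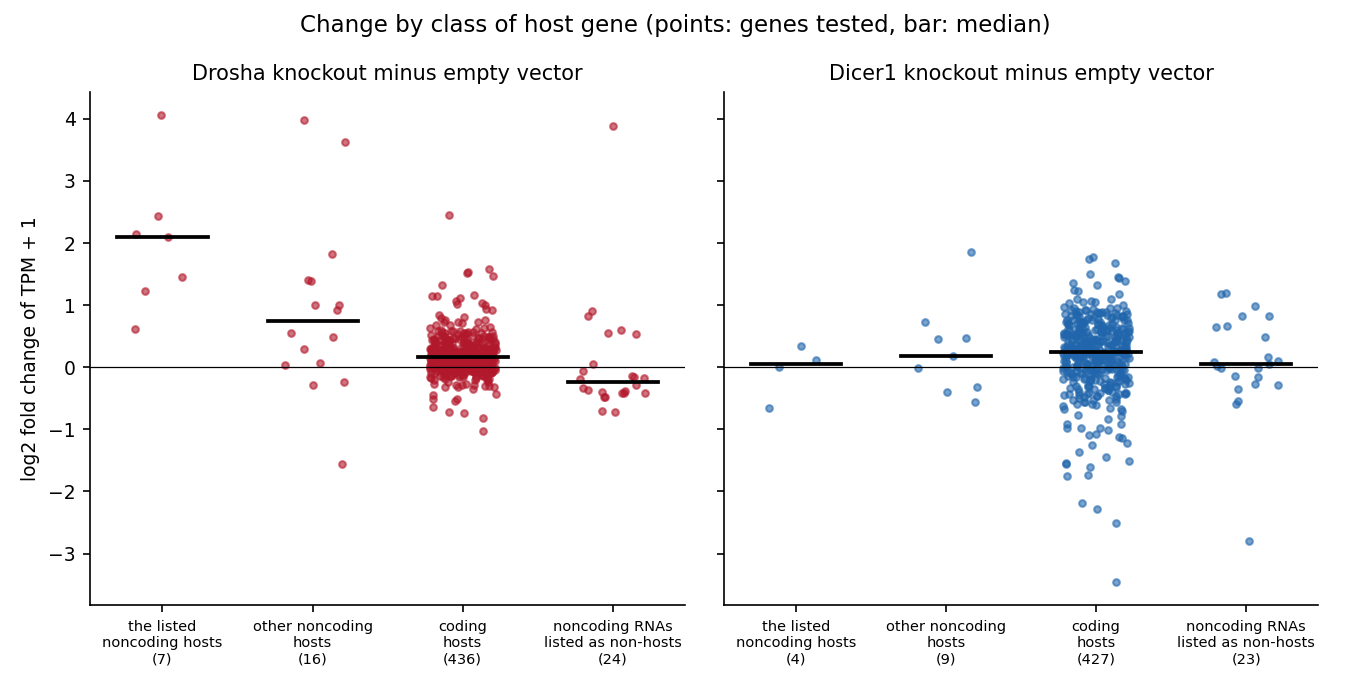
Log2 fold change of TPM + 1 for each tested gene (points, spread sideways for clarity) and the median (bars) in 4 classes, with Drosha knockout on the left and Dicer1 knockout on the right and the number of genes in parentheses. In Drosha knockout the medians are 2.10 for the listed hosts and 0.74 for other noncoding hosts. They are 0.16 for coding hosts and -0.23 for noncoding RNAs listed as non-hosts. The listed hosts and the non-hosts were chosen with earlier results of these data known, so their medians are not an independent comparison.

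Other lists gave the setting. Of 24 tested noncoding RNAs listed as carrying no microRNA, 4 rose and 8 fell in Drosha knockout (median -0.23). The one with the largest change was Lncpint (38.1 ± 4.74 TPM in Drosha knockout and 1.70 ± 0.626 TPM in empty vector, 3.88 ± 0.17, adjusted p = 1.33e-05). In the annotation Lncpint lies 19.5 kb from the hairpin of Mir29b-1 on the same strand. Nearer to a same-strand hairpin, Snhg1 at 16.5 kb fell (-0.49) and Jpx at 7.39 kb was not called (-0.41). A part of distance in these changes was not tested. Gas5, a host of small nucleolar RNAs, fell (-0.72 ± 0.04). In Dicer1 knockout 6 of 23 rose and 3 fell (median 0.05), against 4 in each direction with either scaling. On a hand-made list of other noncoding microRNA hosts, 2 of 4 tested rose in Drosha knockout, Carmn (2.14 ± 0.22) and Dnm3os (1.39 ± 0.13), and 0 of 3 were called in Dicer1 knockout. Of hand-listed coding hosts, 10 of 27 rose and 3 fell in Drosha knockout, a balance that turned with median-ratio scaling (7 higher, 8 lower) and quantile normalization (7 and 9). Those that rose were led by Aopep (1.53 ± 0.12), which spans Mir23b, Mir24-1 and Mir27b, and Clcn5, a chloride transporter gene (1.02 ± 0.12). In Dicer1 knockout 3 of 24 rose and 4 fell, with Aopep lower (-1.08 ± 0.14) and Smc4, a condensin gene that carries miR-15b, lower (-0.79 ± 0.21).

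Genes of the microRNA machinery rose in 11 of 19 cases and fell in 1, Drosha, in Drosha knockout (7 and 1 with either scaling), and rose in 7 of 19 cases in Dicer1 knockout (4 with either scaling). Dgcr8, whose own messenger RNA contains a hairpin that the Microprocessor cuts, rose to 58.1 ± 5.99 TPM in Drosha knockout, against 18.9 ± 2.55 TPM in empty vector (1.58 ± 0.11), and stood at 28.7 TPM in Dicer1 knockout and 25.6 TPM in empty vector (0.20 ± 0.28, adjusted p = 0.624). Of 11 imprinted genes tested in Drosha knockout 4 rose and 3 fell (median -0.05), a balance that turned with median-ratio scaling (2 higher, 4 lower) and quantile normalization (2 and 5). In Dicer1 knockout 1 of 11 imprinted genes rose and 2 fell, and with either scaling 0 rose. The p53 response list had 12 of 15 higher in Drosha knockout and 8 of 15 higher in Dicer1 knockout; with median-ratio scaling 10 were higher and 2 lower in Drosha knockout and 6 higher in Dicer1 knockout. Of 25 cell cycle genes, 25 rose in Drosha knockout (median 0.99), whereas 21 fell and 0 rose in Dicer1 knockout (median -1.65), and the directions held with both scalings. The 6 marrow stroma markers had 3 lower and 0 higher in Drosha knockout (4 and 0 with median-ratio scaling, 3 and 1 with quantile normalization), and 4 lower and 1 higher in Dicer1 knockout (5 and 0 with either scaling). The part of these lists in the levels of the hosts was not tested.

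The 4 hosts tested in both tables followed similar profiles over the 10 libraries once each library was set against the empty vector mean of its own table. Pearson's r was 0.97 between Mir22hg and Mir100hg, 0.94 between Dleu2 and Mir100hg and 0.93 between Mir22hg and Dleu2, and 0.62 to 0.68 between Mir99ahg and the others. Among 8933 other genes, the profiles most like their mean were those of Srf, a transcription factor gene (r = 0.990), Galm, a sugar epimerase gene (0.989), Tmem65 (0.988), Lgals3bp (0.986) and Stim1, a calcium sensor gene (0.985). Of these Stim1 changed most, with 65.4 ± 0.975 TPM in Drosha knockout and 30.3 ± 1.34 TPM in empty vector of batch 2, and 9.50 TPM in Dicer1 knockout and 9.76 TPM in empty vector of batch 1. These correlations describe libraries that share their groups and batch, and any gene higher in Drosha knockout and level in Dicer1 knockout would score high.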

How the data were processed

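The authors deposited TPM per gene in a separate table for each knockout. The submitters' processing notes name kallisto 0.48.0. None of these sources gives its index, annotation, genome build or strand setting. There were 55357 rows in each. For Drosha, 20024 of 22369 rows without a symbol were named by Ensembl ID; for Dicer1, 22339 rows without a symbol, with 4.25% to 6.22% of the TPM, were left out. Rows sharing a name were summed; each member had 1 row.

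Two-sided tests on log2(TPM + 1), with a mean trend, used limma 3.58.1 (R 4.3.3) and set each knockout against the empty vector of its own table. Features needed 1 TPM in 3 of 6 (Drosha) or 2 of 4 (Dicer1) libraries; p-values were adjusted by Benjamini-Hochberg over all features and called under 0.05. The fit was tested on simulated data. The difference fit used all 10 libraries. Named were the members, microRNA rows reaching 1 TPM, nearest coding neighbours, the 5 genes most alike, and leading genes of hand-made lists; others were chosen after their values were seen. The members and lists were chosen with earlier results of these data known. Alternatives covered pseudocount, filter, scaling, trend, a replicate block and leaving out each library. TPM keeps no depth, so precision rests on replicates.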

Additional observations from a re-analysis of the deposited data

Results flagged for a closer look

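For 3 hosts the log2 change in Drosha knockout exceeded that in Dicer1 knockout by a test of the difference itself: by 2.09 for Mir22hg, by 2.76 for Dleu2 and by 2.14 for Mir100hg (limma adjusted p = 2.77e-06, 2.58e-05 and 0.00104). The knockouts belong to different batches, and knockout and batch cannot be told apart here. No group held enough libraries for a check of single outlying samples.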

How the results depend on the processing

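The 7 hosts that rose in Drosha knockout kept their direction and call under each of 14 alternatives (13 for Mir17hg and Mir99ahg, which a minimum TPM of 5 removed, leaving 5). Of these hosts Mir17hg passed the main filter only through the knockout libraries. Differences between the knockouts kept their calls for Mir22hg (2.02 to 2.17), Dleu2 (2.48 to 3.04) and Mir100hg (1.76 to 2.52) under 18 alternatives; without the filter H19 was called too (2.22, adjusted p = 8.87e-05). Features called in Drosha knockout were 2309 higher and 2077 lower with median-ratio scaling, and 2143 higher and 2204 lower with quantile normalization. In Dicer1 knockout 1847 were called without the filter (1362 higher, 485 lower), and 1471 higher with median-ratio scaling and 1622 with quantile normalization. Leaving out 1 library gave 0 to 3988 calls in Dicer1 knockout (0 to 2922 higher, 0 to 1453 lower); the 0 arose without either Dicer1 knockout library, when limma still gave 2925 or 3129 features an unadjusted p under 0.05 and in every such fit the lone library is assumed to vary like the other group. Hosts called there numbered 0 to 1 higher and 0 to 2 lower, and 1 lower with median-ratio scaling. Leaving out 1 library reversed Mir100hg (-0.38 to 0.38; 0.00438 without Dicer1 knockout replicate 2) and Mir99ahg (-0.34 to 0.58; -0.21 without empty vector replicate 1); the cause was not tested. Deviations of same-numbered libraries correlated at -0.0213 to 0.0203 in the Drosha table, which showed no sign of pairing by replicate number. In the Dicer1 table they correlated at -0.0921. With 2 libraries per group every such correlation has the same size, so it cannot tell whether the Dicer1 libraries were paired. With the replicate number as a block, 5188 and 3045 features were called, and no host changed its call. Depth is unknown.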
